A study of Mus musculus with 23 samples.

Results

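The acyl-CoA and acetyl-CoA synthetases described here are 9 genes chosen by name, by a rule that uses no measured value: the long-chain enzymes Acsl1, Acsl3, Acsl4 and Acsl5, the short-chain enzymes Acss1, Acss2 and Acss3, and the family members Acsf2 and Acsf3. These genes, and the gene lists used further on, were nevertheless chosen with earlier results of these data known. Shares of all genes set beside their counts are therefore descriptions and no blind test. All 9 were found among the 24029 genes of the deposited table. Expression was measured in C3H10T1/2, a mouse mesenchymal stem cell line of strain C3H from which fat cells can be grown. All cells, according to the labels' protocols, received 8.3 nM BMP7 for 3 days before day 0. Cells for day 7 were induced from day 0 to day 2 with 5 uM DEX, 0.5 mM IBMX and 0.12 ug/ml Insulin. The same mix held 1 uM of a compound labelled Rosi and 1 nM T3. Until day 7 these cells were kept with Insulin, Rosi and T3. Cells of day 0 stand before induction, as the pre-adipocytes that the series compares with the mature adipocytes of day 7. Day 0 and day 7 each have 1 standard library, prepared with oligo-dT enrichment and random hexamer priming, and 1 library labelled N9 that was prepared by TELP, the method the series is about. TELP libraries labelled N9_ss and T18 exist for day 7 only, and no label explains N9, ss or T18. Of the 23 samples, 17 are from chromatin immunoprecipitation and were not analysed here.

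Acyl-CoA synthetases join a free fatty acid to coenzyme A at the cost of ATP, the step that a fatty acid must pass before it can be stored as triglyceride, built into phospholipid or oxidised in mitochondria. The family members differ in the chain length they accept and in where they sit in the cell. Acetyl-CoA synthetases do the same for acetate, which feeds fatty acid and sterol synthesis in the cytosol and protein acetylation in the nucleus. In fat tissue, Acsl1 is known as the main long-chain enzyme and as a target of PPARgamma.

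Promoter sequences are shown for the pair of genes that were called higher at day 7 in both library types, Acsl1 and Acss2, since these are the genes on which the results turn. RefSeq tables (build GRCm38.p6) held the 250 bases before the start of 8 of the 9 genes, and did not hold Acss3. Acsl1 has a pair of annotated starts, so the 8 genes gave 9 windows. Capitals mark matches, on either strand, to GGGCGG (the GC box), CCAAT (the CCAAT box) and TCACNCCAC (a form of the sterol element), and no such matches overlap in the windows printed. The windows are chr8:46470787-46471036 for the first Acsl1 start, chr8:46490716-46490965 for its second start and chr2:155517793-155518042 for Acss2, all on the plus strand.
Acsl1, first start: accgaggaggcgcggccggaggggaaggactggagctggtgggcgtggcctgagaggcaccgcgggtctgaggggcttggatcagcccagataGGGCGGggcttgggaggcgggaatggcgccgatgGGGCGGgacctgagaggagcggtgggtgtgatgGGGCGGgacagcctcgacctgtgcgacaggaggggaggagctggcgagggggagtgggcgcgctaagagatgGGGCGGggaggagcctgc
Acsl1, second start: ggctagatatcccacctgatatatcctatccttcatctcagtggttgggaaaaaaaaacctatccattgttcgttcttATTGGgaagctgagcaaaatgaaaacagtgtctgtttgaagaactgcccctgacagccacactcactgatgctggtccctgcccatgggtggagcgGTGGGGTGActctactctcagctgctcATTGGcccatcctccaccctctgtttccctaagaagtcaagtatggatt
Acss2: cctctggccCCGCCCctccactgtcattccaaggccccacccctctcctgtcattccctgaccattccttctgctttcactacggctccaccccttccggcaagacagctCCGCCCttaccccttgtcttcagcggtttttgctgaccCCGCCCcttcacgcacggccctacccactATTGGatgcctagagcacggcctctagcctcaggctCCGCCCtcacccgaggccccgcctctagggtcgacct
The window at the first Acsl1 start holds 4 GC boxes and is 72% G or C, against a median of 52.4% over all 32851 windows of the same length. The second Acsl1 window holds 2 CCAAT boxes and 1 sterol element at 76 bases before the start, with 48.4% G or C. The Acss2 window holds 1 CCAAT box and 4 GC boxes, with 64% G or C. Of all windows, 32.7% hold a GC box, 33.8% a CCAAT box and 1.05% the sterol element. GC boxes were also found for Acsf2 and Acsl3 (5 each) and for Acsl4 and Acss1 (2 each), and 1 CCAAT box each for Acsf3, Acsl3 and Acsl5. None of the 9 windows held the nuclear receptor half-site AGGTCA (14.0% of all windows), that half-site repeated with 1 base between (0.0335%), the E-box CACGTG (6.02%), TATAAA (12.4%) or the C/EBP core TTGCNNAA (9.56%). These matches describe the letters in these windows and say nothing about binding.

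Values are RPKM, the authors' read numbers divided by gene length and by the size of the library, so that levels can be compared between genes. Each group holds 1 library, so no value has a replicate error, and nothing in the labels says whether the standard and TELP libraries came from separate cultures. Relative depth, read from the steps between low values, was 98.5% of the standard day 0 library for standard day 7, 157% for N9 day 0, and 38.2%, 40.0% and 33.1% for N9, N9_ss and T18 at day 7. Genes at 1 RPKM or more numbered 10306 to 11306 in 5 libraries and 6797 in T18, where the 10 highest genes held 79.8% of all RPKM. Adipocyte markers summed to 8.12 and 4.94 RPKM in the standard and N9 libraries at day 0 and to 13085 and 30069 at day 7, with Lep listed at 0 throughout. Fabp4 alone held 10253 and 24892 RPKM of the day 7 sums. Precursor cell markers summed to 342 and 369 RPKM at day 0 and to 232 and 53.0 at day 7 in the same order. Of 4 macrophage markers found, Ptprc and Emr1 were at or near 0 and Cd68 reached 4.70 RPKM in N9 day 7. In bulk RNA, fewer cells of a type and less RNA per cell cannot be told apart.

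Differences below are of log2(RPKM + 1), which understates the change of low genes. Genes averaging 1 RPKM or more in the libraries set against each other were kept, and a difference of 1 or more in either direction counted as a call. Between day 7 and day 0 in the standard libraries, 2 of the 8 synthetase genes kept were called higher (Acsl1 and Acss2) and 0 lower, where 8.22% of 11312 genes were called higher and 6.53% lower. In the N9 libraries 4 of 8 were higher (Acsl1, Acss2, Acsf2 and Acsf3) and 1 lower (Acss3), against a background of 13.9% higher and 29.9% lower among 11360 genes. That split over all genes, 1580 higher and 3393 lower, moved to 2224 and 1900 with a median of ratios scaling and to 1100 and 5192 with equal totals. The same 2 genes, Acsl1 and Acss2, stood higher in each library type and 0 stood lower in each, against 7.23% and 5.81% of 11474 genes. Acsf3 joined them, for 3 genes higher in both, with a pseudocount of 0.1 RPKM and with quantile normalization, where 995 and 920 of all genes were. The median difference over the 8 genes was 0.46 in the standard libraries, against -0.18 over all genes, and 1.17 in the N9 libraries, against -0.45. A limma fit over these 4 libraries with library type as a block has 1 residual degree of freedom. That residual is how far the day difference disagrees between the library types, and limma shrinks it toward a spread pooled over all genes fitted. The fit holds no measure of the spread between cultures. It called 0.715% of genes higher and 0.105% lower, which is 82 and 12 genes, and 1 synthetase gene, Acsl1. At an unadjusted p under 0.05 it gave 3014 genes, 3 of them synthetases.

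**Figure D1:**
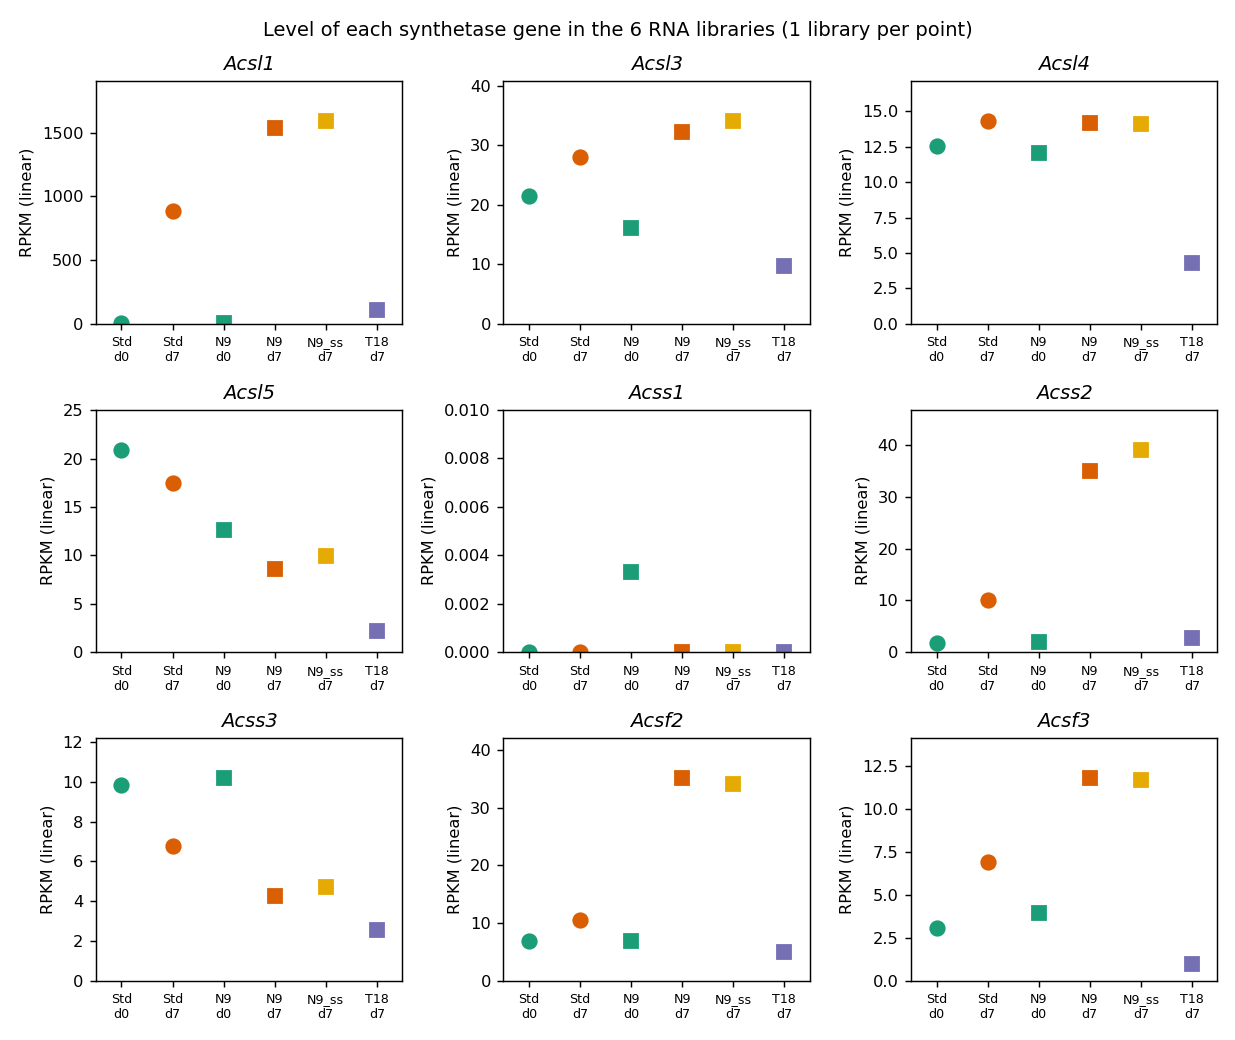
RPKM of each of the 9 genes (vertical axis, linear, a separate scale for each gene) in the 6 RNA libraries (horizontal axis, 1 point per library; circles standard, squares TELP; green day 0, orange day 7, yellow N9_ss, purple T18). Acsl1 goes from 4.94 and 3.38 RPKM at day 0 to 888 and 1536 at day 7, while Acsl4 stays between 12.0 and 14.3 RPKM in the 5 libraries other than T18.

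Acsl1, the long-chain enzyme of fat storage and oxidation, held most of the family's RNA at day 7. Its value was 4.94 RPKM in standard day 0 and 3.38 RPKM in N9 day 0, and 888 RPKM in standard day 7 and 1536 RPKM in N9 day 7. N9_ss gave 1588 RPKM and T18 gave 109 RPKM. Every day 7 library lay above both day 0 libraries, T18 being the lowest of them and N9_ss repeating N9. The ratio of day 7 to day 0 was 180 in the standard libraries and 454 in the N9 libraries. On the log2(RPKM + 1) scale the differences were 7.22 and 8.45, in place 20 from the top of 11312 genes and place 29 of 11360. By level, Acsl1 stood in place 8170 among all genes in standard day 0 and in place 30 in standard day 7, and it went from place 9298 to place 38 in the N9 libraries. In the limma fit Acsl1 rose by 7.84 on the log2 scale (SE 0.43, Benjamini-Hochberg adjusted p = 0.0244). Over 9 alternatives that adjusted limma p ran from 3.4e-22 to 0.413 and was above 0.05 in 5 of them, among them N9_ss in place of N9 (0.0585) and a pseudocount of 0.1 RPKM (0.0615). The difference itself stayed above the call: it lay between 7.22 and 8.09 in the standard libraries over 7 settings, and between 4.65 (T18 in place of N9) and 8.80 in TELP over 9.

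**Figure D2:**
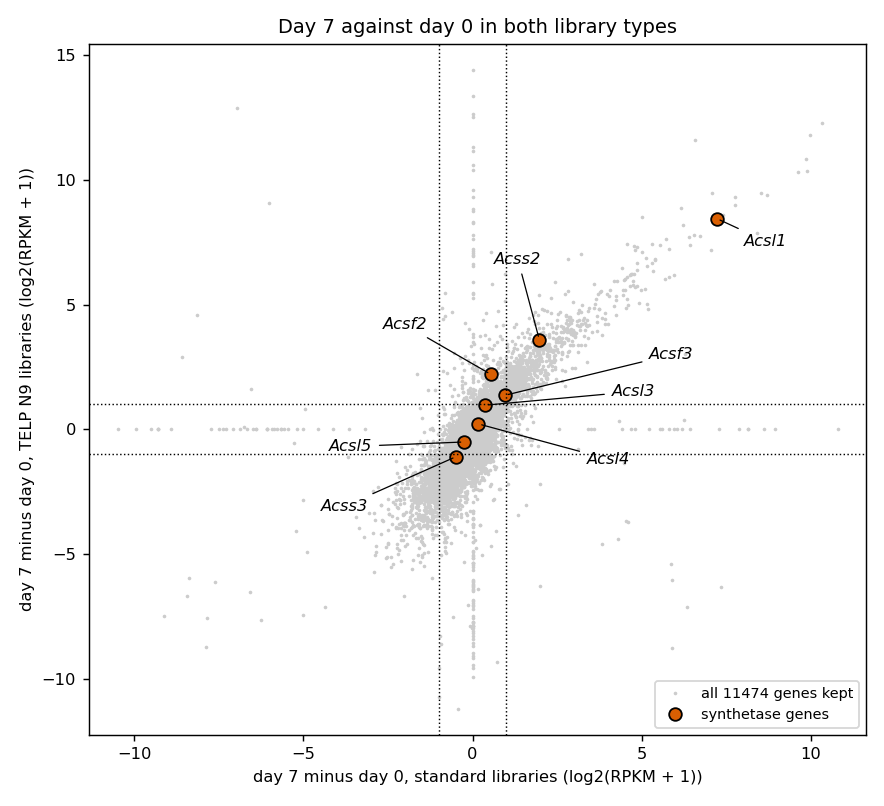
Difference of log2(RPKM + 1) between day 7 and day 0 in the standard libraries (horizontal axis) and in the TELP N9 libraries (vertical axis) for all 11474 genes kept (grey) and the 8 synthetase genes kept (orange); dotted lines mark the call at 1 and -1. Acsl1 (7.22 and 8.45) and Acss2 (1.98 and 3.59) are past the upper line on both axes, and Acsf2 (0.55 and 2.20) and Acsf3 (0.95 and 1.36) are past it on the vertical axis alone.

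None of the other long-chain enzymes met the call on the deposited scale. Acsl3, which sits on the endoplasmic reticulum and on nascent lipid droplets, measured 21.5 and 28.1 RPKM at day 0 and day 7 in the standard libraries and 16.0 and 32.3 RPKM in the N9 libraries. N9_ss gave 34.0 RPKM and T18 gave 9.66 RPKM. Both day 7 values of the standard and N9 types lay above both day 0 values, but the log2 differences of 0.37 and 0.97 missed the call (limma 0.67, SE 0.34, adjusted p = 0.262). The N9 difference of Acsl3 lay close to the call and passed it under 4 alternatives, at 1.01 with a pseudocount of 0.1 RPKM, 1.04 with N9_ss in place of N9, 1.15 with quantile normalization and 1.46 with median of ratios, and with T18 in place of N9 it was -0.67.

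Acsl4, which prefers arachidonate and other polyunsaturated fatty acids, varied least of the 8 genes on the deposited scale in the 5 libraries other than T18. It measured 12.6 RPKM in standard day 0, 14.3 in standard day 7, 12.0 in N9 day 0, 14.2 in N9 day 7 and 14.1 in N9_ss, and 4.29 RPKM in T18. The day 7 minus day 0 differences were 0.17 and 0.22, with a limma estimate of 0.20 (SE 0.30, adjusted p = 0.675). The N9 difference depended on the scaling. It was 0.70 with median of ratios, 0.54 with quantile normalization, -0.26 with equal totals and -1.30 with T18 in place of N9. The median of all genes in N9 was -0.45 on the deposited scale.

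Acsl5, an enzyme of mitochondria and endoplasmic reticulum that is abundant in intestine, was the long-chain gene with lower values at day 7. It measured 20.9 RPKM in standard day 0 and 17.5 RPKM in standard day 7, and 12.7 RPKM in N9 day 0 and 8.62 RPKM in N9 day 7. N9_ss gave 9.95 RPKM and T18 gave 2.14 RPKM. The library types differed more than the days did: the N9 values were the lower at both days. The day differences of -0.24 and -0.50 missed the call (limma -0.37, SE 0.31, adjusted p = 0.441). They lay close to the medians of all genes, -0.18 and -0.45, and were -0.10 and -0.02 with a median of ratios scaling. Whole reads could be recovered for Acsl5, as the smallest whole numbers that reproduce its RPKM to within 0.1 read, and were 887, 732, 845 and 140 for standard day 0, standard day 7, N9 day 0 and N9 day 7. The ratio of day 7 to day 0 was 0.838 in the standard libraries (95% interval 0.758 to 0.925) and 0.681 in the N9 libraries (0.566 to 0.816). These exact conditional binomial intervals cover counting error only and not the spread between cultures, and reads from PCR are not independent molecules.

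Before induction these 3 genes and Acss3 had the highest levels of the 9. In standard day 0 Acsl3 and Acsl5 stood highest, at 21.5 and 20.9 RPKM, followed by Acsl4 at 12.6, Acss3 at 9.84 and Acsf2 at 6.86. Acsl1 came next at 4.94 RPKM, followed by Acsf3 at 3.08 and Acss2 at 1.82. In N9 day 0 Acsl3 again led at 16.0 RPKM, and Acsl5 (12.7) and Acsl4 (12.0) followed with Acss3 at 10.2. With 1 library a group, neighbours in these orders such as Acsl3 and Acsl5 cannot be said to differ. Of the further synthetases measured, Slc27a6 (20.5 and 18.3 RPKM) and Aacs (15.9 and 16.5 RPKM), chosen after their values were seen, lay in the same range at day 0.

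Among the short-chain enzymes, Acss2 was higher at day 7, Acss3 was lower, and Acss1 was listed at or near 0. Acss2 makes acetyl-CoA from acetate in cytosol and nucleus and is known as a target of SREBP factors. It measured 1.82 RPKM in standard day 0 and 1.98 RPKM in N9 day 0, which are close, but 10.1 RPKM in standard day 7 against 35.0 RPKM in N9 day 7. N9_ss gave 39.1 RPKM and T18 gave 2.69 RPKM. The standard and N9 values of day 7 lay above both day 0 values, and N9_ss repeated N9. T18 lay above them too, but not by more than counting error. Its 95% counting interval was 1.69 to 4.07 RPKM on 22 reads, against 1.33 to 2.44 for standard day 0 and 1.56 to 2.48 for N9 day 0. The ratio of day 7 to day 0 was 5.55 in the standard libraries (95% counting interval 4.02 to 7.80, on 246 and 45 reads) and 17.7 in the N9 libraries (13.8 to 23.0, on 331 and 77 reads). The log2 differences of 1.98 and 3.59 stood in place 355 and place 267 from the top, and the second was 0.31 with T18 in place of N9. In the limma fit Acss2 was higher by 2.79 (SE 0.50) with an adjusted p of 0.102, and it passed 0.05 under 1 of 9 alternatives, over which the limma p ran from 0.00753 to 0.610.

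Acss1, the mitochondrial acetyl-CoA synthetase, was listed at 0 in 5 libraries and at 0.003307 RPKM in N9 day 0. It passed no filter on low values and enters no count of called genes. An exact 0 in such a table can be a failed estimate.

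Acss3, a mitochondrial enzyme that prefers propionate, measured 9.84 and 6.78 RPKM at day 0 and day 7 in the standard libraries, and 10.2 and 4.25 RPKM in the N9 libraries. N9_ss gave 4.70 RPKM and T18 gave 2.53 RPKM. Every day 7 value lay below both day 0 values, but N9_ss repeats N9 and T18 is lower for most genes. The differences were -0.48 and -1.09, so that the call was met in the N9 libraries alone, and only just. With N9_ss in place of N9 the difference was -0.97, and with a median of ratios scaling it was -0.60. The limma estimate was -0.78 (SE 0.34, adjusted p = 0.224).

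Acsf2 and Acsf3 are mitochondrial members: Acsf2 activates medium-chain fatty acids, and Acsf3 is the malonyl-CoA synthetase that feeds fatty acid synthesis inside mitochondria. Acsf2 started level, at 6.86 RPKM in standard day 0 and 6.84 RPKM in N9 day 0. At day 7 it measured 10.5 RPKM in the standard library against 35.1 RPKM in N9, with 34.2 RPKM in N9_ss and 4.90 RPKM in T18. T18 is the one day 7 library that lay below both day 0 values. The ratio of day 7 to day 0 was 1.53 in the standard libraries (95% counting interval 1.31 to 1.78, on 426 and 283 reads) and 5.13 in the N9 libraries (4.52 to 5.83, on 554 and 444 reads). The log2 differences were 0.55 and 2.20 (limma 1.37, SE 0.51, adjusted p = 0.193).

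Acsf3 measured 3.08 and 6.89 RPKM at day 0 and day 7 in the standard libraries and 3.97 and 11.8 RPKM in the N9 libraries. N9_ss gave 11.7 RPKM, and T18 gave 0.942 RPKM on 9 recovered reads. The ratios of day 7 to day 0 were 2.24 (1.73 to 2.90) and 2.97 (2.35 to 3.74). These intervals overlap, in contrast to those of Acss2 and Acsf2, and they too cover counting error only. The log2 difference of 0.95 in the standard libraries lay just under the call and that of 1.36 in the N9 libraries above it (limma 1.16, SE 0.32, adjusted p = 0.154). With equal totals the order turned, at 1.02 and 0.92, while both passed the call with a pseudocount of 0.1 RPKM (1.14 and 1.55) and with quantile normalization (1.04 and 1.76).

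The change in Acsl1 remade the composition of synthetase RNA. The 9 genes summed to 81.5 RPKM in standard day 0 and 67.1 in N9 day 0, and to 982 and 1677 RPKM at day 7. Acsl1 made up 6.06% and 5.04% of these sums at day 0 and 90.4% and 91.6% at day 7, and it made up 91.5% in N9_ss and 80.1% in T18. The RPKM of all genes totalled 345750 and 409303 in the standard and N9 libraries at day 0, and 341575 and 584704 at day 7. As shares of these totals the 9 genes held 0.0236% and 0.0164% at day 0. At day 7 they held 0.287% in each library type. Without Acsl1 the other 8 genes summed to 76.6 and 94.1 RPKM at day 0 and day 7 in the standard libraries, and to 63.7 and 141 RPKM in the N9 libraries.

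Among those 8 genes the shares of Acss2, Acsf2 and Acsf3 were larger at day 7 and those of Acsl5 and Acss3 smaller. The share of Acss2 went from 2.38% to 10.7% by the standard procedure and from 3.11% to 24.8% by N9. The share of Acsf2 went from 8.96% to 11.1% and from 10.7% to 24.8%, and that of Acsf3 from 4.03% to 7.32% and from 6.23% to 8.34%. Acsl5 went from 27.3% to 18.6% and from 19.9% to 6.10%, and Acss3 from 12.9% to 7.20% and from 16.0% to 3.01%. Acsl3 held 28.1% and 29.9% by the standard procedure and 25.1% and 22.9% by N9, and Acsl4 held 16.4% and 15.2% and then 18.9% and 10.0%. These shares have no replicate error.

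**Figure D3:**
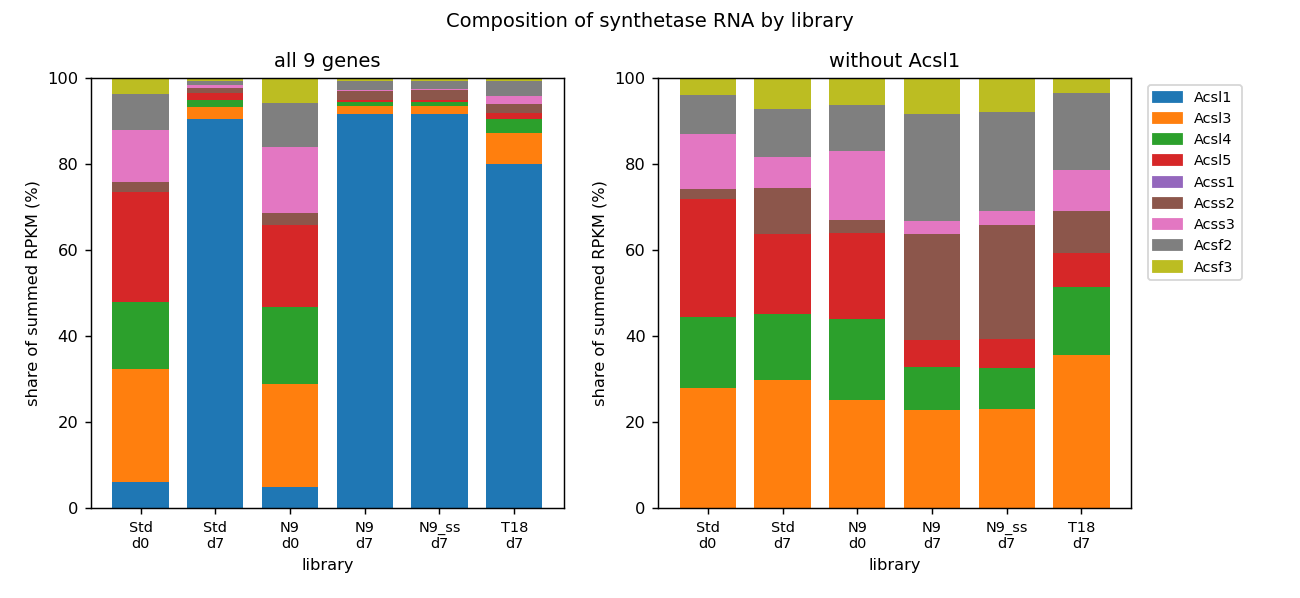
Share of each gene in the summed RPKM of the synthetases (vertical axis, %) in each of the 6 RNA libraries (horizontal axis), with all 9 genes at left and without Acsl1 at right; colours stand for genes. Acsl1 fills 90.4% and 91.6% of the standard and N9 day 7 bars, and at right Acss2 widens from 2.38% to 10.7% and from 3.11% to 24.8%.

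Of 9 genes kept in the list of enzymes that store acyl-CoA as glycerolipid or sterol ester, 5 were called higher in both library types and 0 lower, where 7.23% and 5.81% of all genes were, with a median of 1.72 in the standard and 2.68 in the N9 libraries against -0.17 and -0.46 over all 11474 genes. Agpat2, which adds the second fatty acid to the glycerol backbone, differed by 6.44 and 7.40 (limma adjusted p = 0.0247). Agpat9, a glycerol-3-phosphate acyltransferase by its other name Gpat3, differed by 5.96 and 6.21 (limma adjusted p = 0.0244). Dgat2 (4.72 and 6.25, limma adjusted p = 0.0445) and Dgat1 (3.75 and 4.82, limma adjusted p = 0.0467), which make triglyceride, completed the 4 that passed limma. Agpat3 was the fifth gene called (1.72 and 2.68). Gpam (0.82 and 1.41), Agpat1 (0.53 and 1.32), Agpat6 (0.88 and 0.90) and Soat1, which makes cholesteryl ester (-0.62 and -1.12), were not called in both, and are named here, like Agpat3, after their values were seen. Under the same 5 alternatives that raised the adjusted p of Acsl1 above 0.05, limma called 0 genes of the table.

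Of 9 genes that carry acyl-CoA into mitochondria or oxidise it there, 7 were called higher in both library types and 0 lower (7.23% and 5.81% of all genes), with medians of 2.28 and 3.63. Cpt1b, the muscle and brown fat form of the carnitine transferase that admits acyl groups into mitochondria, differed by 3.80 and 5.56. Acadvl and Acads, dehydrogenases of very long and short chains, differed by 2.82 and 3.94 and by 2.46 and 3.63, and Cpt2 by 2.38 and 3.67. The pair not called in both, named after their values were seen, were Cpt1a (0.66 and 0.33) and Cpt1c (-0.87 and -2.34). None of the 9 passed limma.

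In the malonyl-CoA list, which holds cytosolic and mitochondrial fatty acid synthesis, 8 of 11 genes were called higher in each library type and 0 lower, against the same 7.23% and 5.81%, with medians of 1.79 and 2.37. Acacb and Fasn, which make and use malonyl-CoA outside mitochondria, differed by 3.16 and 4.78 and by 2.97 and 3.83. Mlycd, which breaks malonyl-CoA down, differed by 2.12 and 3.21, and Ndufab1, the mitochondrial acyl carrier protein, by 1.90 and 3.18. Of 13 genes of acetyl-CoA supply and use, 6 were higher in both and 0 lower (medians 0.85 and 1.45). Slc25a1, the citrate carrier, differed by 2.82 and 4.19, Crat by 2.50 and 3.60, Dlat by 2.47 and 3.51, and Acly, which makes cytosolic acetyl-CoA from citrate, by 1.70 and 2.76.

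The next 4 lists had lower medians, and the same shares of all genes (7.23% higher and 5.81% lower in both) stand beside their counts. Of 5 further synthetases kept, 2 were higher in both and 0 lower (medians 0.72 and 1.44): Slc27a1, a fatty acid transport protein with synthetase activity, by 1.94 and 3.84, and Aacs, which activates acetoacetate, by 1.57 and 2.42. Not called in both were Slc27a6 (-0.76 and -3.52), Slc27a3 (-1.15 and -0.88) and Slc27a4 (0.72 and 1.44), named after their values were seen. Day 7 levels of Slc27a6 were 11.7 RPKM (standard) and 0.682 RPKM (N9), against 20.5 and 18.3 RPKM at day 0. Acsl6, the remaining long-chain gene, was listed at 0 in all 6 libraries. Of 8 thioesterases, which undo the synthetase step, 2 were higher in both (Acot2 by 1.59 and 2.71, Acot1 by 1.06 and 2.21) and 0 lower, with medians of 0.52 and 0.89. Of 5 acyl-CoA binding genes, 2 were higher in both (Dbi by 2.99 and 3.37, Acbd4 by 2.45 and 3.33) and 0 lower, with medians of 0.70 and 1.39. The list around polyunsaturated phospholipids, where Acsl4 acts, had 3 of 10 higher in both, 1 lower, and medians of -0.27 and -0.47. Its called members were Lpcat3 (2.62 and 3.34), Aifm2 (2.13 and 3.38), Gpx4 (1.16 and 1.97) and, in the other direction, Pla2g4a (-1.19 and -2.70), the phospholipase that frees arachidonate.

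**Figure D4:**
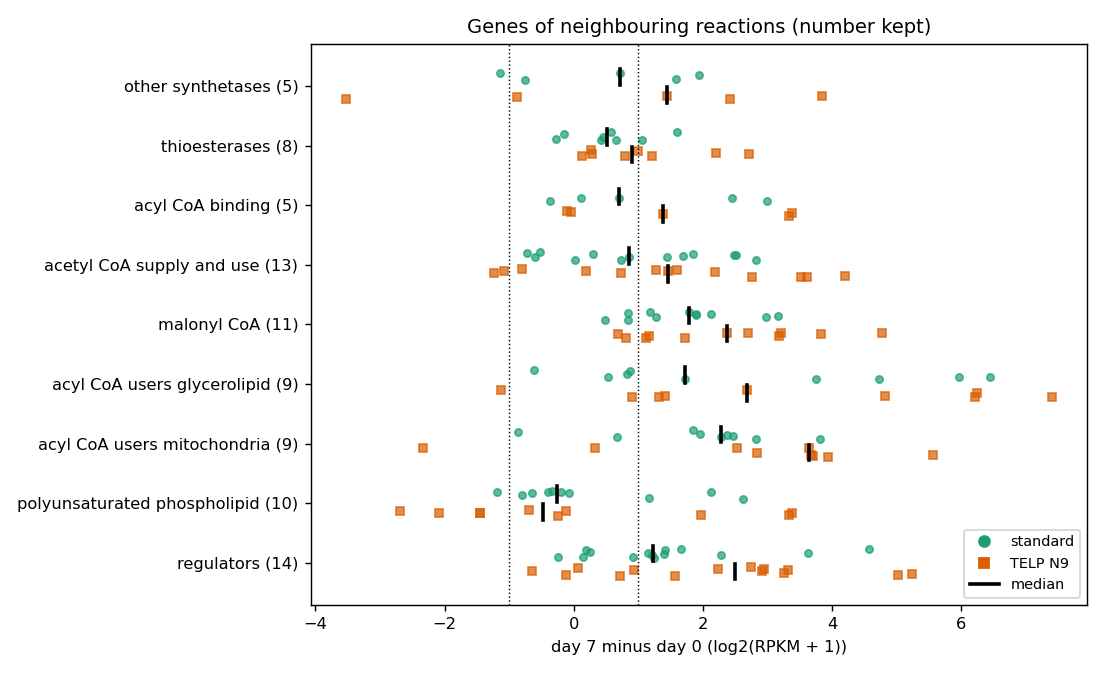
Difference of log2(RPKM + 1) between day 7 and day 0 (horizontal axis) for each gene kept in the 9 lists of neighbouring reactions and regulators (vertical axis, number kept in parentheses); green circles are the standard libraries, orange squares TELP N9, black bars the medians and dotted lines the call at 1 and -1, and points are spread vertically for legibility. The median of the mitochondrial users lies furthest right (2.28 and 3.63) and that of the polyunsaturated phospholipid list is below 0 (-0.27 and -0.47).

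Of 14 regulators of these enzymes, 8 were called higher in both library types and 0 lower, against 7.23% and 5.81% of all genes, with medians of 1.22 and 2.49. Nr1h3, a sterol-sensing nuclear receptor, differed by 4.57 and 5.23 and was the one that passed limma (adjusted p = 0.0337). Cebpa differed by 3.62 and 5.02, Ppara by 2.28 and 3.25, Srebf1 by 1.66 and 3.32, Pparg by 1.40 and 2.24, Esrra by 1.40 and 2.94, Cebpb by 1.24 and 2.74 and Mlxipl by 1.14 and 2.92. The 6 not called in both were Mlx (0.91 and 1.56), Nr1h2 (0.24 and 0.94), Rxra (0.19 and 0.06), Ppard (0.14 and 0.72), Srebf2 (-0.24 and -0.65) and Ppargc1a (1.21 and -0.12). Srebf2 lay close to the median of all genes (-0.17 and -0.46).

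At day 0 the library types gave near values for the synthetases. Of the 8 genes kept, 0 were called higher or lower in N9 against standard, where 2.2% and 0.718% of 11277 genes were. The differences ran from -0.68 for Acsl5 to 0.28 for Acsf3, with a median of -0.03 against 0.01 over all genes. For Acsf2 the ratio of N9 to standard was 0.997 (95% counting interval 0.857 to 1.16) and for Acss2 it was 1.09 (0.744 to 1.61). For Acsl5 it was 0.606 (0.551 to 0.666), below 1 by more than counting error.

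At day 7 the library types parted. Acss2 (1.70) and Acsf2 (1.65) were called higher in N9 and 0 of 8 genes lower, against 7.51% and 17% of 11044 genes, and the median was 0.44 against -0.23 over all genes. The other differences were 0.79 for Acsl1, 0.70 for Acsf3, 0.19 for Acsl3, -0.01 for Acsl4, -0.57 for Acss3 and -0.94 for Acsl5. The ratio of N9 to standard was 3.47 for Acss2 (95% counting interval 2.93 to 4.11), 3.35 for Acsf2 (2.95 to 3.81), 1.71 for Acsf3 (1.36 to 2.14) and 0.493 for Acsl5 (0.408 to 0.591). The log2 fold of day 7 over day 0 was larger in N9 by 1.62 for Acss2, 1.66 for Acsf2 and 1.23 for Acsl1. Markers moved between these libraries too: precursor markers summed to 232 RPKM in standard day 7 and 53.0 in N9 day 7, Pdgfra being at 52.0 and 4.65 RPKM. Brown fat markers summed to 16.0 and 203 RPKM, with Cox7a1 at 9.10 and 112, Cidea at 2.94 and 48.6 and Elovl3 at 4.00 and 41.9. The fourth of them, Ucp1, was at 0 and 0.882 RPKM. Adipocyte markers summed to 13085 and 30069 RPKM, of which Fabp4 alone held 10253 and 24892. The part of these markers and of the library procedure in the difference was not tested. When libraries were scaled to equal totals, Acss2 (0.97) and Acsf2 (0.92) missed the call, Acsl5 (-1.66) and Acss3 (-1.23) were called lower, and Acsl1 stood at 0.02, Acsf3 at -0.00 and Acsl3 at -0.56.

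**Figure D5:**
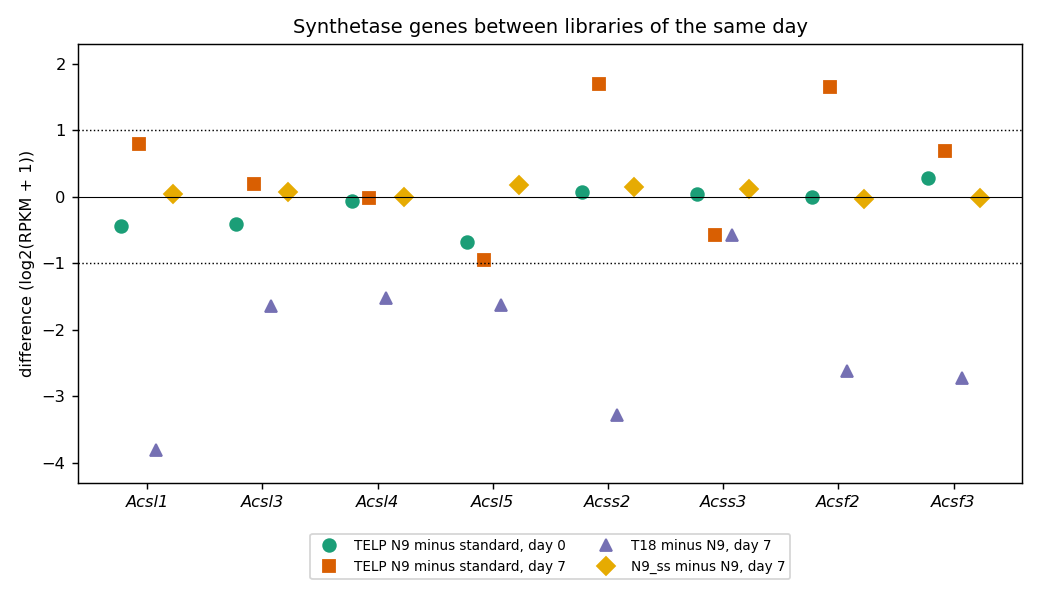
Difference of log2(RPKM + 1) between libraries of the same day (vertical axis) for the 8 synthetase genes kept (horizontal axis): N9 minus standard at day 0 (green circles) and day 7 (orange squares), T18 minus N9 (purple triangles) and N9_ss minus N9 (yellow diamonds), with dotted lines at 1 and -1. The circles stay between -0.68 and 0.28, the squares of Acss2 and Acsf2 reach 1.70 and 1.65, and 7 of the 8 triangles lie below -1.

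The T18 library gave lower values for nearly the whole family. In T18 against N9, 0 of the 8 genes were called higher and 7 lower, where 0.841% and 83.4% of 9753 genes were, so the count stands close to the background. Relative to the median of all genes, -1.77, the genes lay on both sides. Acsl1 (-3.80), Acss2 (-3.29), Acsf3 (-2.72) and Acsf2 (-2.61) lay below it. Acsl3 (-1.64), Acsl5 (-1.62), Acsl4 (-1.52) and Acss3 (-0.57) lay above it. A median of ratios scaling, which moved the all-gene median to -0.05, turned the direction for Acsl3 (0.47), Acsl4 (0.47), Acsl5 (0.19) and Acss3 (1.27, past the call). N9_ss repeated N9, with differences of -0.04 to 0.19 and 0 of 8 genes called higher or lower, against 0.0194% and 0.00968% of 10334 genes. Of 2100 low genes, 1788 stood at 1 common ratio between N9 and N9_ss, so N9_ss was not counted as a replicate of N9.

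The genes whose profiles over 5 libraries (N9_ss left out) were nearest to each synthetase were found among 11021 genes, by the root mean square difference of log2(RPKM + 1) after centring on each gene's mean. Nearest to Acsl1 was Plin1, the perilipin that coats lipid droplets (0.190), followed by Pnpla2, the lipase that opens triglyceride breakdown (0.350), and Agpat2 (0.437). Plin1 measured 0.0838 RPKM in standard day 0 and 183 in standard day 7, and Pnpla2 3.77 and 444 RPKM, where Acsl1 measured 4.94 and 888 RPKM. For Plin1, below 1 RPKM at day 0, the added 1 RPKM shrinks the change. Its nearness to Acsl1 rests in part on that setting, and the ranking was not repeated with another. Nearest to Acss2 was Endog, the mitochondrial endonuclease G (0.10), at 1.64 and 8.89 RPKM in the standard and 1.90 and 29.0 RPKM in the N9 libraries. Tgm2 (0.128) and Lipg (0.160) came next. Nearest to Acsf2 were Mif4gd (0.102), Rbm38 (0.124) and Atp9a (0.133). Lipg, Rbm38 and Atp9a too lay below 1 RPKM in both day 0 libraries.

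The other genes kept had closer neighbours. Profiles that change little get smaller distances by this measure, so the distances do not rank likeness between synthetases. Acsl4 stood nearest to Rmi1 (0.0186) and Tcn2 (0.0429), and Acsl3 to Tmem170b (0.0517), Slc22a5, the carnitine transporter (0.0841), and Nudt2 (0.0869). Acsl5 stood nearest to Vps8 (0.0473), Tbce (0.0799) and the ribosomal protein gene Rpl7a (0.0934). Acss3 stood nearest to Zfp959 (0.0245), Coil (0.0291) and Gab3 (0.0388). Acsf3 stood nearest to Cox10, a cytochrome oxidase assembly gene (0.0634), Cdkn1a (0.0736) and Sirt3, the mitochondrial deacetylase (0.0762). These likenesses are descriptions over 5 libraries, 1 of which (T18) is lower for most genes.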

How the data were processed

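The authors deposited RPKM values for 24029 genes in 6 RNA libraries, and 0 columns were left unmapped. Bowtie2, TopHat, Cufflinks and the mm9 build are named per the submitters' processing notes. Versions, annotation, strand handling and read totals are, in the sources used here, not given, so reads of overlapping or antisense genes cannot be told apart. The 9 genes, the lists and the named-gene rule were chosen with earlier results of these data known. The rule named all 9 genes, all regulators, up to 4 called genes a list and the 3 nearest profiles for each gene, 1 of which is not reported here. Differences used log2(RPKM + 1), a mean of at least 1 RPKM and a call at 1. limma 3.58.1 (R 4.3.3, trend off) took 4 libraries with library type as a block and a Benjamini-Hochberg rate of 0.05 over 11474 genes. The scripts were tested on simulated data. Relative depth came from whole-number steps between values up to 0.3 RPKM, and the round over standard and N9 libraries closed at a product of 1.00027. Few low genes stood at some of these ratios: 9 of 1050 between N9 day 0 and day 7, 10 of 2087 between standard and N9 day 0, 33 of 1106 between standard and N9 day 7, 46 of 894 between N9 and T18, and 265 of 1763 between the standard days. Whole reads were recovered for 5355 of 10645 genes searched (50.3%, tolerance 0.1 read, smallest value at most 250 reads), 4 of them synthetases. They are the smallest numbers that give these ratios and may be a divisor of the true count. No count test was run, as the other genes gave none. Promoters are from RefSeq (GRCm38.p6), not the files' build. Alternatives changed the pseudocount (0.1 RPKM), the filter (none, or 5 RPKM), the scaling (median of ratios, quantile, equal totals), N9_ss or T18 in place of N9, and limma with trend. Python 3.11.15, pandas 2.3.3, numpy 2.4.6 and scipy 1.17.1 were used.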

Additional observations from a re-analysis of the deposited data

Results flagged for a closer look

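Ppargc1a, a coactivator of mitochondrial genes, moved in opposite directions in the library types: day 7 minus day 0 was 1.21 in the standard libraries and -0.12 in the N9 libraries on the log2(RPKM + 1) scale, a gap of -1.33. Its levels were low, at 0.787 and 3.13 RPKM in the standard and 0.939 and 0.783 RPKM in the N9 libraries. Both day differences lay above the medians of all genes, -0.17 and -0.46. The sign in N9 is that of the deposited scale, and other scalings were not tried for this gene. The gap between the library types was not tested, since each group holds 1 library.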

How the results depend on the processing

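Each group holds 1 library, so no library could be left out in turn. No paired analysis was possible by replicate number because the RNA columns carry none, and the limma fit instead takes library type as its block. Of 392 values of single genes under the alternatives, 346 stayed on their side of the call, 14 fell short of it, 22 passed it anew and 10 called values reversed. For the limma values among the 392, the call is an adjusted p under 0.05 in place of a difference of 1. A change of sign among values under the call is not counted as a reversal. Values that passed anew include some of the opposite sign. Acsl1 in N9 against standard at day 7, for example, went from 0.79 to -3.01 with T18 in place of N9. With T18 in place of N9, day 7 minus day 0 was -0.41 for Acsf2 and -1.35 for Acsf3, and N9 minus standard at day 7 was -1.59 for Acss2 and -0.96 for Acsf2. With it 1 synthetase was higher and 4 lower at day 7 in TELP, 1 higher in both types, and 0 higher and 7 lower than standard. Of all genes, 274 were higher and 9351 lower at day 7 in TELP, 199 higher in both types, and 120 higher and 9332 lower than standard. The medians over all genes were -2.11 for day 7 minus day 0 and -1.96 against standard, so most genes kept were called lower. In T18 against N9, median of ratios scaling gave 0.47 for Acsl3, 0.47 for Acsl4 and 0.19 for Acsl5, and quantile normalization 0.47, 0.53 and 0.31. Each left 1 gene higher (Acss3, 1.27 and 1.28) and 3 lower in T18 and 0 lower at day 7 in N9. N9_ss in place of N9 also left 0 lower, where 3385 of all genes were. In these 3 settings and at a pseudocount of 0.1 RPKM, 5 were higher at day 7 in N9, Acsl3 being the one added. Of all genes, 2224 were higher there with median of ratios, 2097 with quantile normalization, 1607 with N9_ss and 1727 at that pseudocount. N9 against standard at day 7 gave 1 lower (Acsl5, -1.01) at a pseudocount of 0.1 RPKM, where 2441 of all genes were lower. With equal totals it gave 0 higher and 2 lower (Acsl5 and Acss3), where 274 of all genes were higher and 5010 lower. limma called 0 synthetases at the pseudocount of 0.1 RPKM, with no filter, with a filter at 5 RPKM, with median of ratios and with N9_ss, and 2 with equal totals. The cause was not tested.

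Over all genes, limma called 82 higher and 12 lower, but 0 and 0 in those 5 settings, 35 and 4 with quantile normalization, 416 and 546 with equal totals and 162 and 24 with trend on. With T18 it called 67 higher and 42 lower. Median of ratios changed the calls in T18 against N9 from 82 higher and 8130 lower to 1419 and 1611, and quantile normalization to 1458 and 1491. A filter at 5 RPKM left 4865 lower there. For day 7 against day 0 in N9, 3393 genes were lower, against 1900 with median of ratios, 2138 with quantile normalization and 5192 with equal totals. T18 in place of N9 gave 274 higher and 9351 lower, against 1580 and 3393. Both types gave 667 lower and 418 with median of ratios, and 830 higher and 199 with T18. N9 against standard at day 7 gave 829 higher and 1872 lower, against 1379 and 1051 with median of ratios, 274 and 5010 with equal totals and 120 and 9332 with T18. There 1137 were lower with quantile normalization and 1088 with the filter at 5 RPKM. The day 7 TELP libraries had the least depth, at 33.1% to 40.0% of standard day 0, but counting error goes by the reads of each gene. Reads recovered in standard day 0, N9 day 0 and N9 day 7 were 887, 845 and 140 for Acsl5 and 89, 180 and 130 for Acsf3. They were 45, 77 and 331 for Acss2 and 283, 444 and 554 for Acsf2, where day 0 has the fewer reads.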
